A study of Mus musculus with 8 samples.

Results

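The 10 CC chemokine genes described here were *Ccl2*, *Ccl3*, *Ccl4*, *Ccl5*, *Ccl6*, *Ccl7*, *Ccl9*, *Ccl17*, *Ccl22* and *Ccl24*. They were found by gene symbol among the 23356 genes of the deposited expression table, and all 10 had a row in it. RNA was sequenced from bone marrow-derived dendritic cells (BMDCs), which are grown from mouse marrow in culture, here for 6 days with GM-CSF and IL-4 at 10 ng/ml each. WT and Arhgef2-/- (GEF-H1-/-) mice gave the cells (C57BL/6 background in the labels, C57BL/6N in the study's methods, aged 8 to 16 weeks). The cells were left untreated (control) or kept for 5 h with 100 nM ansamitocin-P3 (AP3), a maytansinoid that destabilizes microtubules. GEF-H1, the product of *Arhgef2*, is a guanine nucleotide exchange factor that is held on microtubules and released when they depolymerize. Each of the 4 groups had 2 libraries, 8 in all, and all groups shared the cytokines and the culture time. The GEF-H1-/- mice were bred at a single site, whereas WT mice could come from several sources, and the pairing of the libraries was not given in the sources used here.

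CC chemokines are small secreted proteins with a pair of adjacent cysteines near the amino terminus. They bind G protein-coupled receptors and steer leukocyte migration. In dendritic cells and macrophages, *Ccl2* and *Ccl7* (monocyte attractants that bind CCR2), *Ccl3* and *Ccl4* (attractants of monocytes and T cells) and *Ccl5* (a T cell attractant) are known as inflammatory chemokines. *Ccl6* and *Ccl9*, rodent ligands of CCR1, are made by resting myeloid cells. *Ccl17* and *Ccl22* (ligands of CCR4) and *Ccl24* (an eosinophil attractant that binds CCR3) are typical of cells cultured with IL-4, which all groups received.

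The table held 1 value per gene and group in FPKM, that is fragments scaled to transcript length and library size, in which Cuffdiff had joined the 2 libraries, and a 95% confidence interval for it. Values of single libraries were not analysed here, so no difference could be set against the spread between libraries and no test was run. A difference was read in 2 ways: as a log2 ratio of (FPKM + 1) over 1 or under -1, and as Cuffdiff intervals that did not overlap. All 10 members passed a filter of 1 FPKM in at least 1 group with an OK status, as did 11397 genes in all. The median log2 ratio of those genes lay between -0.03 and 0.00 in each of the 4 comparisons. The sequencing depth of the libraries cannot be read from FPKM. *Arhgef2* was at 42.3 FPKM in control and 45.9 in treated WT DCs, and at 4.59 and 4.16 in GEF-H1-/- DCs. The names of the WT columns carry no genotype, and they were taken as WT because the other columns name GEF-H1.

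Dendritic cell genes were present in every group, with *Cd74* at 3073 to 4935 FPKM, *H2-Ab1* at 506 to 633 and *Itgax* at 102 to 175. All 7 listed markers were at 1 FPKM or more, except in treated WT DCs, where 6 were. Their sums, mostly *Cd74*, were 4452 and 5726 FPKM in control and treated WT DCs and 3739 and 4051 in GEF-H1-/- DCs. *Itgax* went the other way, at 102 and 132 FPKM in WT and 129 and 175 in GEF-H1-/- DCs (overlapping intervals). The progenitor-associated receptor *Flt3* was low, at 1.07 to 2.63 FPKM. Genes of other cell types were also present, and several differed between genotypes. The summed FPKM of the 7 neutrophil markers found, of 8 listed, was 32422 and 38285 in control and treated WT DCs and 21832 and 22240 in GEF-H1-/- DCs. *S100a8* and *S100a9* made up most of it, and the members did not all go one way: in control cells *Camp* was at 189 FPKM in WT against 15.0 in GEF-H1-/- DCs, but *Mpo* at 26.4 against 63.1 and *Elane* at 20.7 against 45.9 (overlapping intervals). All 6 basophil and mast cell markers were found, with sums of 196 and 200.5 in WT and 380.5 and 364 in GEF-H1-/- DCs, and the 3 eosinophil markers summed to 1118 and 927 against 472 and 440.4. *Prg2* made up most of that sum, and the marker *Siglec5* was higher in GEF-H1-/- DCs, at 24.1 FPKM against 15.8 in control cells. The 6 macrophage markers summed to 173 to 269.6 FPKM over the groups. The 4 T and NK cell markers found, of 5 listed, summed to 92.8 and 109 in WT against 38.6 and 34.1 in GEF-H1-/- DCs, where *Gzma* made up most of each sum and *Ncr1* was at 0.25 or less. B cell markers summed to 3.06 to 6.43 FPKM and fibroblast markers to 0.09 to 2.81. The part of these cells in the differences between genotypes given below was not tested, and in bulk RNA fewer cells of a type and less RNA per cell cannot be told apart.

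The members lie on 3 mouse chromosomes (GRCm38, GENCODE gene models). *Ccl2* (chr11:82035571-82037453) and *Ccl7* (chr11:82045712-82047525) are neighbours 8.26 kb apart. Some 1478 kb further along chromosome 11 follow *Ccl5* (chr11:83525778-83530518), *Ccl9* (chr11:83572919-83578636), *Ccl6* (chr11:83587882-83593087), *Ccl3* (chr11:83647844-83649355) and *Ccl4* (chr11:83662584-83664683). Within that cluster *Ccl9* and *Ccl6* are 9.24 kb apart and *Ccl3* and *Ccl4* 13.2 kb apart. On chromosome 8, *Ccl22* (chr8:94745590-94751699) and *Ccl17* (chr8:94810453-94812036) are separated by 58.8 kb, and *Ccl24* (chr5:135569937-135573049) stands alone on chromosome 5. The deposited table gives *Ccl6* the wider interval chr11:83582061-83623693, which is that of E230016K23Rik, a noncoding gene on the opposite strand that spans *Ccl6*. The libraries were strand-specific, but whether the FPKM were counted by strand was not given in the sources used here, and without strand reads of these overlapping genes cannot be told apart.

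The family motif can be read in the coding sequence of each member, and 30 bases around it are shown for 2 neighbouring pairs whose values went together, so that their likeness can be seen beside their values. Capitals mark the codons of the adjacent cysteines. All 4 stretches are in coding exons, exon 3 in *Ccl6* and *Ccl9* and exon 2 in *Ccl2* and *Ccl7* (GRCm38, GENCODE transcripts, written 5′ to 3′ in the sense of the gene).
*Ccl2* (chr11:82036494-82036523, plus strand): gccccactcaccTGCTGCtactcattcacc
*Ccl7* (chr11:82046526-82046555, plus strand): aatgcatccacaTGCTGCtatgtcaagaaa
*Ccl6* (chr11:83589374-83589403, minus strand): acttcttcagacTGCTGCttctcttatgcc
*Ccl9* (chr11:83575914-83575943, minus strand): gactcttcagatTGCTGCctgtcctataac
Of the 10 members, 9 spelled the cysteine pair TGCTGC, and *Ccl4* spelled it TGCTGT. Whole coding sequences were aligned, and identity was the share of alignment columns with the same base, gap columns counted. By this measure *Ccl3* and *Ccl4* were highest among the 45 pairings of members (69.5%), followed by *Ccl6* and *Ccl9* (66.5%). *Ccl2* and *Ccl7* had 49.3%, near the low end of the range of 44.1% to 69.5% over all pairings. Their coding sequences differ in length (444 and 291 bases), and the gaps this brings lower the value. Reads of 35 bases could still separate the members, since no 35-base word of a member's main transcript occurred in a transcript of another member. In *Ccl6*, 0.996% of such words occurred in the transcripts of 1 other gene, in *Ccl9* 3.40% occurred in transcripts of 780 other genes, and the other 8 members had none.

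IL-4-type chemokines were the bulk of the family in every group. Control WT DCs had *Ccl17* at 5778 FPKM (95% interval 3557 to 5872) and treated WT DCs at 6386 (3896 to 6456). It was at 4802 (2953 to 4837) and 5529.8 (3390.1 to 5588) without and with the drug in GEF-H1-/- DCs. It ranked between the 6th and the 9th of 11397 genes by FPKM. *Ccl22* was at 2685 (2041 to 3328) and 3445 (2569.7 to 4322) FPKM in WT and at 2010.1 (1551 to 2460.4) and 2241 (1726 to 2755) in GEF-H1-/- DCs, which put it between the 15th and the 20th gene. Next in every group came *Ccl6*, although its interval overlapped that of *Ccl22* in 3 of the 4 groups and not in control WT DCs. At the low end stood *Ccl7*, the least abundant member in all 4 groups, at 10.0 to 70.6 FPKM.

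**Figure D1:**
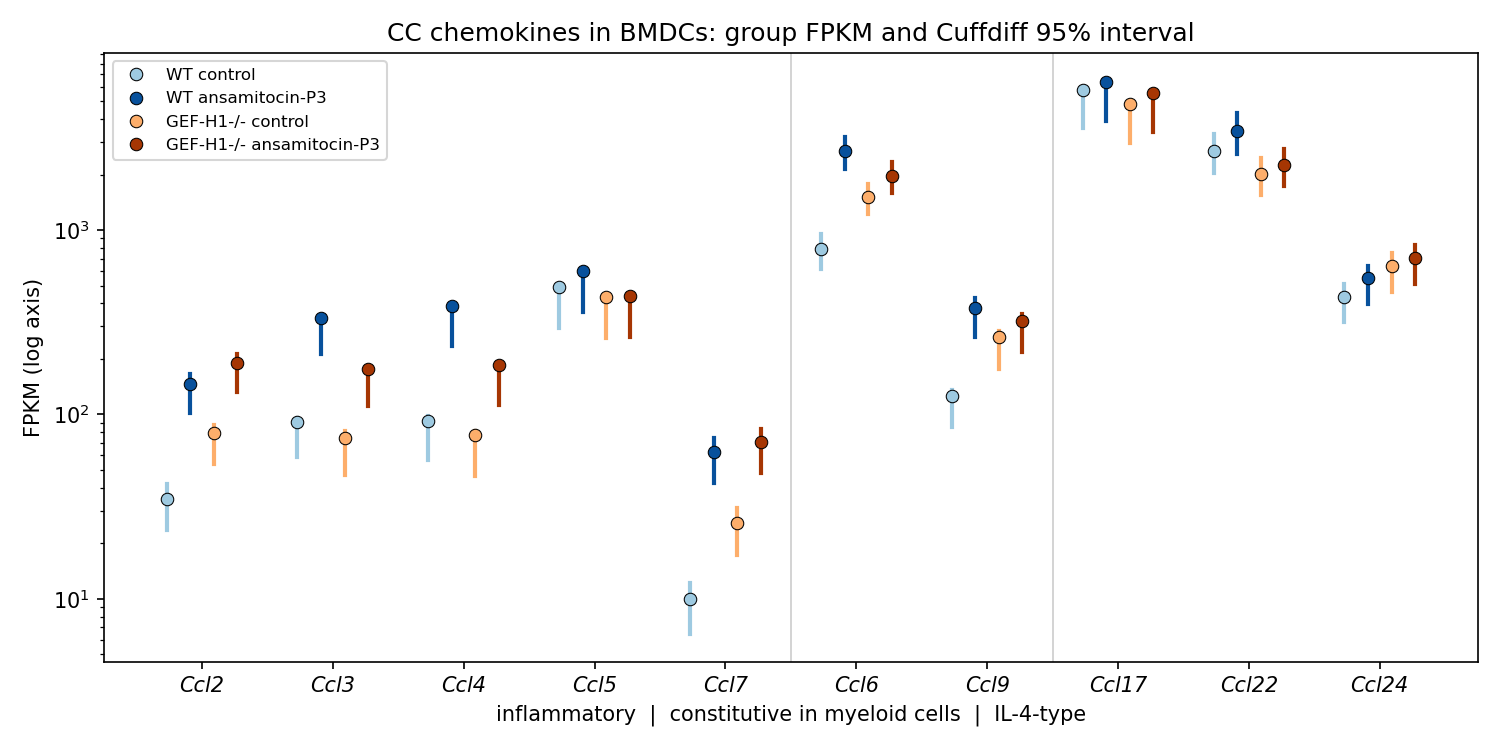
FPKM of the 10 members on a log axis, with 1 point per group and the Cuffdiff 95% interval as a vertical line. Points of *Ccl2*, *Ccl3*, *Ccl4*, *Ccl6*, *Ccl7* and *Ccl9* in treated WT DCs lie above the whole interval of control WT DCs, whereas the intervals of *Ccl5*, *Ccl17*, *Ccl22* and *Ccl24* overlap.

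In WT DCs treated with ansamitocin-P3, 6 of the 10 members were over 1 on the log2 scale and none was under -1. They were the inflammatory chemokines *Ccl2*, *Ccl3*, *Ccl4* and *Ccl7* and both constitutive ones, *Ccl6* and *Ccl9*. Among all genes, 3.66% were over 1 in that comparison. The same 6 members had intervals apart in the direction of higher FPKM, against 9.19% of all genes. The median log2 ratio of the members was 1.68 and that of all genes 0.00. Because the list was drawn up with earlier results of these data known, the counts describe the family and support nothing further.

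*Ccl7* had the largest ratio of the family in WT DCs, a 6.25-fold difference from 10.0 FPKM (6.43 to 12.2) without drug to 62.7 (42.6 to 74.2) with it. Its partner *Ccl2* stood at 34.8 (23.6 to 41.9) and 147 (102 to 165) FPKM, a ratio of 4.22. Setting the bounds of the intervals against each other, the ratio ran from 3.50 to 11.5 for *Ccl7* and from 2.44 to 6.99 for *Ccl2*. For these CCR2 ligands, treated WT DCs were above the control interval by a wide margin.

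*Ccl3* and *Ccl4*, neighbours on chromosome 11, had almost the same FPKM as each other in control WT DCs, 91.4 (58.7 to 95.2) and 91.9 (56.2 to 97.5). With ansamitocin-P3 they reached 334 (212 to 340.3) and 387 (235 to 377), ratios of 3.65 and 4.22. For *Ccl4* the FPKM exceeded the upper bound that Cuffdiff gave for it in both treated groups, so the interval is an uncertain measure of its error. *Ccl3* over *Ccl4* was 0.995 in control and 0.861 in treated WT DCs, and the GEF-H1-/- groups gave 0.966 and 0.949, a narrow range over groups in which each gene alone differed severalfold.

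*Ccl6*, a CCR1 ligand, was at 787 FPKM (618 to 957) in WT DCs without drug and 2671 (2129.5 to 3212) with it, a 3.39-fold difference that moved it from the 109th to the 22nd gene by FPKM. *Ccl9*, next to it on chromosome 11 and also a CCR1 ligand, was at 125 (85.2 to 136) and 378 (264 to 426), a ratio of 3.02. In absolute FPKM no member differed as much as *Ccl6*, by 1884 FPKM, of a difference of 4427 FPKM for the 10 members together. E230016K23Rik, the gene opposite *Ccl6*, was at 1.62 FPKM (0.00 to 6.35) in control WT DCs, and its log2 ratio with ansamitocin-P3 was 1.10, with overlapping intervals.

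*Ccl5* stood apart from the other inflammatory chemokines. It was already at 492 FPKM (295 to 474) in WT DCs without drug and stood at 599 (358 to 574) with it, with overlapping intervals and a log2 ratio of 0.28. In all 4 groups its FPKM exceeded the upper bound of its own interval, so the interval is no safe guide to its error. The IL-4-type members had log2 ratios of 0.14 (*Ccl17*), 0.36 (*Ccl22*) and 0.33 (*Ccl24*, 435 and 548 FPKM), all with overlapping intervals.

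**Figure D2:**
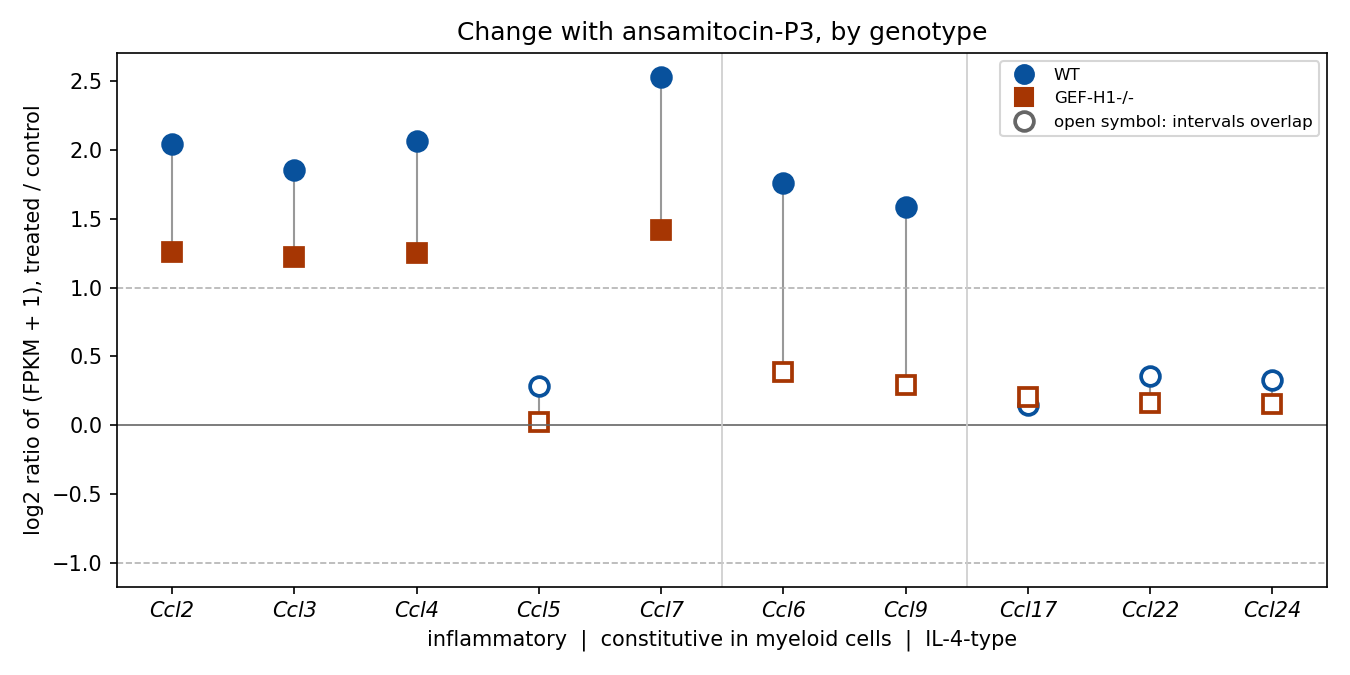
Log2 ratio of (FPKM + 1) between treated and control cells for each member, with circles for WT and squares for GEF-H1-/- DCs, open where the intervals of control and treated cells overlap. *Ccl2*, *Ccl3*, *Ccl4* and *Ccl7* are over 1 in both genotypes, and *Ccl6* and *Ccl9* are over 1 in WT (1.76 and 1.59) and at 0.39 and 0.29 in GEF-H1-/- DCs.

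In GEF-H1-/- DCs, ansamitocin-P3 left 4 members over 1 on the log2 scale, and these 4 were the inflammatory genes *Ccl2*, *Ccl3*, *Ccl4* and *Ccl7*. Here 0.807% of all genes were over 1. The same 4 members had intervals apart towards higher FPKM, against 2.75% of all genes. The median log2 ratio over the 10 members was 0.34, where that of all genes was -0.01.

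GEF-H1-/- DCs had *Ccl2* at 78.9 FPKM (54.1 to 87.9) without drug and 190.1 (132 to 212) with it, and *Ccl7* at 25.8 (17.2 to 31.2) and 70.6 (48.1 to 83.2). *Ccl3* was at 74.6 (46.8 to 81.4) and 176 (111 to 179) FPKM, and *Ccl4* at 77.2 (46.6 to 81.3) and 185 (112 to 182). The ratios of these 4 genes were alike, from 2.35 for *Ccl3* to 2.73 for *Ccl7*, and each was smaller than the gene's ratio in WT DCs.

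*Ccl6* and *Ccl9* differed from this. *Ccl6* was at 1502 FPKM (1219 to 1786) without drug and 1968 (1587 to 2348) with it, a ratio of 1.31 with overlapping intervals. *Ccl9* was at 262 (176 to 284) and 319.8 (218 to 352), a ratio of 1.22, also with overlap. *Ccl5* was at 431 (259 to 416) and 438 (262 to 421) FPKM, a log2 ratio of 0.02. *Ccl24* was at 639 (463 to 746) and 709 (512 to 826) FPKM, and the 3 IL-4-type genes had log2 ratios of 0.15 to 0.20.

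The share of the WT log2 ratio that was present in GEF-H1-/- DCs was taken for the 6 members over 1 in WT. The WT ratio both picked these members and is the denominator, which by itself tends to lower the share. The share was not computed for the other genes over 1 in WT. It was 0.660 for *Ccl3*, 0.615 for *Ccl2*, 0.606 for *Ccl4* and 0.560 for *Ccl7*, but 0.221 for *Ccl6* and 0.181 for *Ccl9*, with a median of 0.583. The difference between the log2 ratios of the genotypes (GEF-H1-/- minus WT) was under -1 for 3 members, *Ccl6* (-1.37), *Ccl9* (-1.30) and *Ccl7* (-1.11), against 1.36% of all genes. For *Ccl4*, *Ccl2* and *Ccl3* it was -0.81, -0.79 and -0.63. It was closest to 0 for *Ccl17*, at 0.06, the only member with a larger log2 ratio in GEF-H1-/- than in WT DCs. No error can be given for these differences, which combine 4 group values.

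A smaller ratio did not mean a smaller gain in FPKM for every member. For *Ccl2* the treated minus control difference was 112 FPKM (WT) and 111 (GEF-H1-/-), and for *Ccl7* it was 52.7 and 44.7. For these genes the ratios differed while the FPKM gains were close. The gain was 242 against 101 FPKM for *Ccl3*, 296 against 108 for *Ccl4*, 253 against 58.1 for *Ccl9* and 1884 against 465 for *Ccl6*. As a share of the WT gain in FPKM, the gain in GEF-H1-/- DCs was 99.4% for *Ccl2*, 85.0% for *Ccl7*, 41.7% for *Ccl3*, 36.5% for *Ccl4*, 24.7% for *Ccl6* and 22.9% for *Ccl9*. *Ccl6* and *Ccl9* came last on both scales, and the order of the 4 inflammatory genes differed between the scales.

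**Figure D3:**
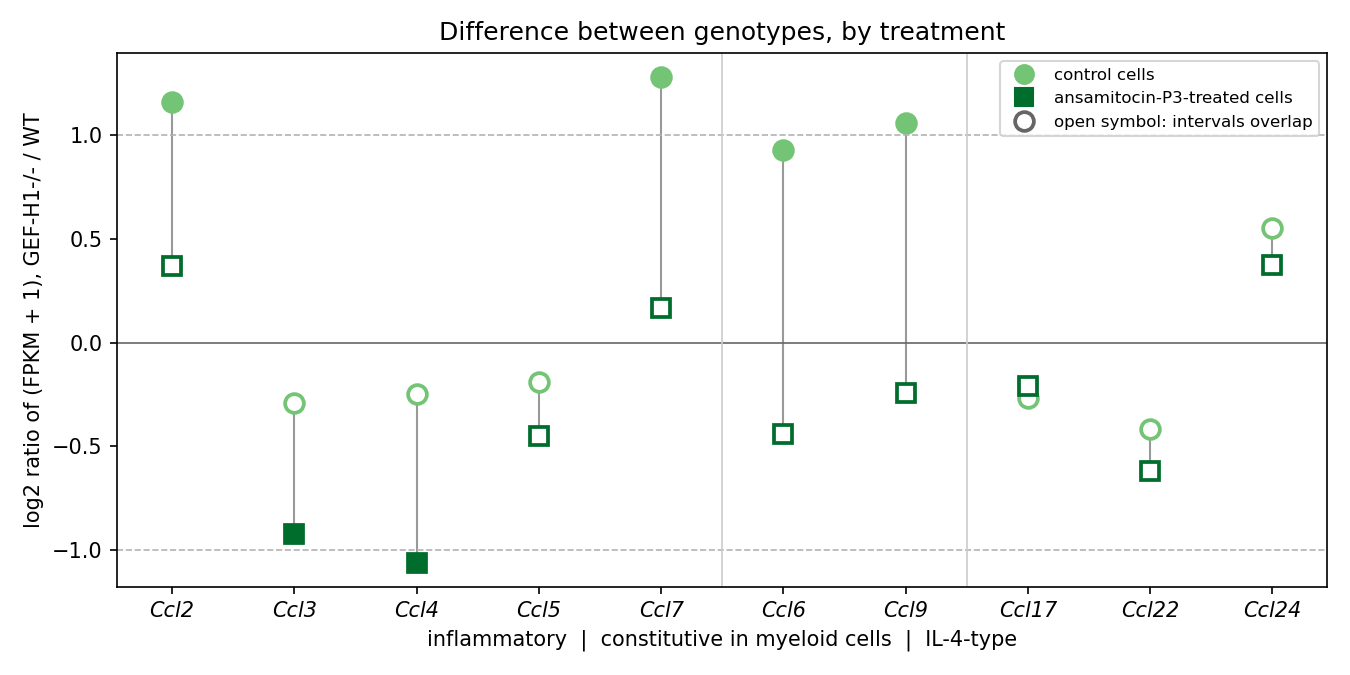
Log2 ratio of (FPKM + 1) between GEF-H1-/- and WT DCs for each member, with circles for control and squares for treated cells, open where the intervals of the genotypes overlap. *Ccl2*, *Ccl7*, *Ccl6* and *Ccl9* are higher in GEF-H1-/- control cells (1.16, 1.28, 0.93 and 1.06), and *Ccl3* and *Ccl4* are lower in treated GEF-H1-/- cells (-0.92 and -1.06).

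Before any drug, 3 members were over 1 on the log2 scale in GEF-H1-/- relative to WT DCs, *Ccl7* (1.28), *Ccl2* (1.16) and *Ccl9* (1.06), against 1.26% of all genes. Together with *Ccl6* (0.93), 4 members had intervals apart towards higher FPKM in GEF-H1-/- DCs, against 2.86% of all genes. The ratios were 2.57 for *Ccl7*, 2.27 for *Ccl2*, 2.09 for *Ccl9* and 1.91 for *Ccl6*. The other members overlapped: *Ccl24* was higher (0.55), and *Ccl22* (-0.42), *Ccl3* (-0.29), *Ccl17* (-0.27), *Ccl4* (-0.25) and *Ccl5* (-0.19) were lower. The marker sums of neutrophils, eosinophils and basophils and mast cells given above differed between the same groups, with members of the first 2 lists in both directions, and their part in these values was not tested.

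Between treated cells of the genotypes, *Ccl4* was the only member under -1 in GEF-H1-/- relative to WT DCs (-1.06), against 2.06% of all genes. With *Ccl3* (-0.92) 2 members had intervals apart towards lower FPKM, against 6.73% of all genes. *Ccl2* (0.37), *Ccl7* (0.17), *Ccl9* (-0.24) and *Ccl6* (-0.44), the members that had been higher in GEF-H1-/- control cells, overlapped between the treated genotypes, as did *Ccl5* (-0.45), *Ccl17* (-0.21), *Ccl22* (-0.62) and *Ccl24* (0.37). The comparisons share groups, since each group value enters a drug comparison and a genotype comparison, so they are not independent of each other.

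The 10 members together made up 10530.3 FPKM in control and 14958 in treated WT DCs, and 9902 and 11827 in GEF-H1-/- DCs, or 1.67% to 2.04% of all FPKM. IL-4-type genes were 84.5% of that sum in control WT DCs and 69.4% after ansamitocin-P3. *Ccl6* and *Ccl9* together were 8.66% and 20.4%, and the inflammatory genes 6.83% and 10.2%. In GEF-H1-/- DCs the make-up of control and treated cells was closer. There the IL-4-type genes were 75.2% and 71.7%, the constitutive ones 17.8% and 19.3%, and the inflammatory ones 6.94% and 8.96%.

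**Figure D4:**
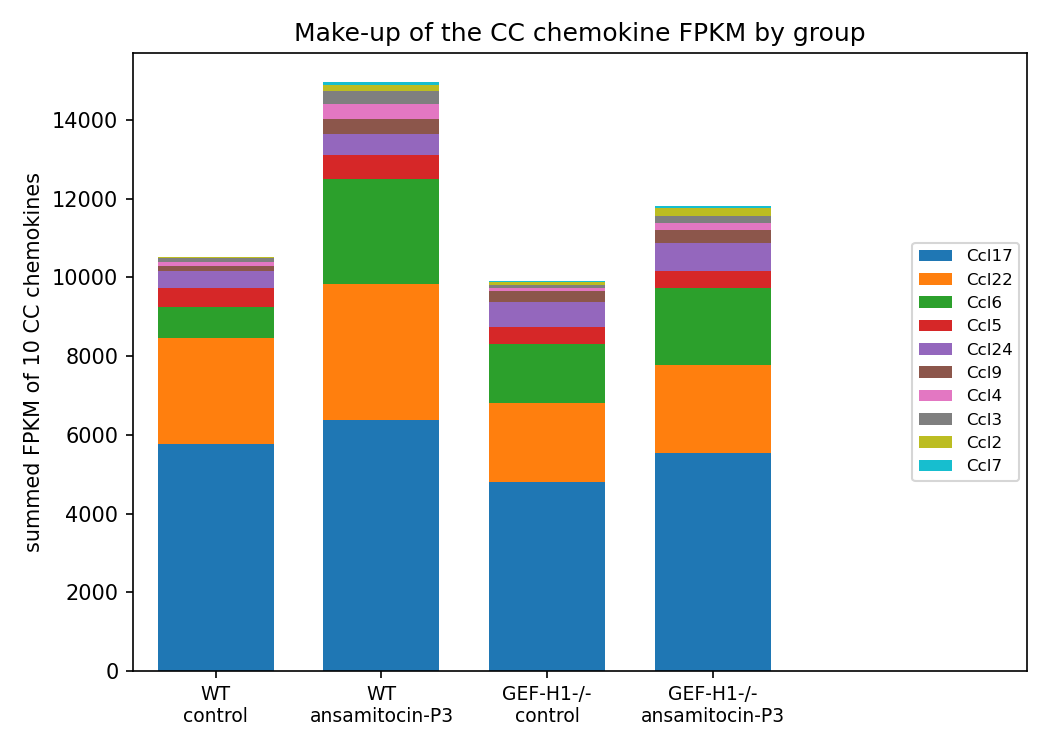
Summed FPKM of the 10 members in each group as a stacked bar from 0, with 1 colour per gene. The bar of treated WT DCs is the tallest (14958 FPKM), and its *Ccl6* segment is 2671 FPKM against 787 in control WT DCs.

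Some neighbouring genes had like profiles over the groups. Likeness was measured as the distance between profiles of log2(FPKM + 1) over the 4 group values, each centred on its mean. Among 22 other chemokine ligands that passed the filter, the nearest to *Ccl3* was *Ccl4* (0.16) and the reverse, *Ccl6* and *Ccl9* were nearest to each other (0.22), and so were *Ccl2* and *Ccl7* (0.36). *Ccl17* and *Ccl22* on chromosome 8 were not each other's nearest, since *Ccl5* was nearest to *Ccl17* (0.18) and to *Ccl22* (0.23). *Ccl24* had its nearest ligand, *Ccl25*, at 0.37, but *Ccl25* was at only 0.85 to 1.70 FPKM, where the added 1 FPKM flattens a profile. Among 7715 other genes with at least 5 FPKM in every group, the nearest were *Tubb2a* to *Ccl2* (0.45), *Tgm2* to *Ccl7* (0.60), *Ccdc71l* to *Ccl3* (0.10), *Ndrg1* to *Ccl4* (0.12), *Slc7a2* to *Ccl6* (0.23) and *Srgn* to *Ccl9* (0.22). For *Ccl5*, *Ccl17*, *Ccl22* and *Ccl24* they were *Efhd2* (0.02), *Styx* (0.03), *Abracl* (0.04) and *Tnfsf12* (0.08). Genes on other chromosomes were thus nearer to *Ccl3* and *Ccl4* than these neighbours were to each other. In contrast, *Ccl2* and *Ccl7* were nearer to each other than to any of the 7715 genes. So were *Ccl6* and *Ccl9*, by a small margin (0.215 against 0.228 for *Slc7a2* and 0.223 for *Srgn*). With only 4 values per gene, such likeness is a description.

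Promoters were read for *Ccl9* and *Ccl6*, whose values went together, and for *Ccl17*, the most abundant member and an IL-4-type gene. The 250 bases before the RefSeq start (GRCm38.p6) are shown, 5′ to 3′ in the sense of the gene, and capitals mark matches to the motifs named below. RefSeq promoters were matched for 5 of the 10 members, *Ccl3*, *Ccl6*, *Ccl9*, *Ccl17* and *Ccl22*.
*Ccl9* (chr11:83578637-83578886, minus strand): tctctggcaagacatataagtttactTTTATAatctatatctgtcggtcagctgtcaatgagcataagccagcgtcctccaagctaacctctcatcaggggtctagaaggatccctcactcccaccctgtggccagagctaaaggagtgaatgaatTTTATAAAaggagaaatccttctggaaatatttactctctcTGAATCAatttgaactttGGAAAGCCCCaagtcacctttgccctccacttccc
*Ccl6* (chr11:83593088-83593337, minus strand): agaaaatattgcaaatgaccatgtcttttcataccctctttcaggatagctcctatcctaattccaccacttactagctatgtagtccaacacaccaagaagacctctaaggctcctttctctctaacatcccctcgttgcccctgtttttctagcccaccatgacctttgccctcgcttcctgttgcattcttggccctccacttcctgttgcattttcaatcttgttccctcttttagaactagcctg
*Ccl17* (chr8:94810203-94810452, plus strand): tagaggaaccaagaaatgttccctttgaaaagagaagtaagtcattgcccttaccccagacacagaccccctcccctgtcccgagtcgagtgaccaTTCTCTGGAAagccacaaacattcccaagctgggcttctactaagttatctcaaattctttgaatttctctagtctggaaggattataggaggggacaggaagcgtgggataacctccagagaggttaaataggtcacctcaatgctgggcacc
Both strands were searched for TATAAA (the core promoter box), TGANTCA (AP-1), TGACGTCA (CRE), TTGCNNAA (C/EBP), TTC and GAA with 4 bases between (STAT6), and the NF-kappaB consensus. *Ccl9* held 3 matches to TATAAA, starting 224, 94 and 92 bases before the start, of which the last 2 overlap. It also held 1 match to AP-1 at 53 bases and 1 to NF-kappaB at 35 bases before the start. *Ccl17* held 1 STAT6 match, 154 bases before the start. No match was found in the windows of *Ccl3*, *Ccl6* and *Ccl22*. Of 32851 RefSeq promoters, 12.4% held TATAAA, 6.75% AP-1, 1.55% CRE, 9.56% C/EBP, 5.85% STAT6 and 3.90% NF-kappaB in the same 250 bases. A match describes letters and is no evidence of binding.

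The other genes of the chemokine system were read from lists of ligands and receptors. Of 14 further CC ligands, 4 passed the filter (*Ccl1*, *Ccl8*, *Ccl12* and *Ccl25*, named after their values were seen), and none was over 1 with ansamitocin-P3 in either genotype. *Ccl12*, a CCR2 ligand, came closest, at 0.82 and 2.44 FPKM in WT and 2.81 and 6.53 in GEF-H1-/- DCs, log2 ratios of 0.91 and 0.98. At these low values the added 1 FPKM mattered. Without it the *Ccl12* ratios were 2.96 and 2.32, which is past the threshold, with overlapping intervals in both genotypes. *Ccl8* was listed at 0 in control WT DCs, at 0.25 in treated WT DCs and at 7.06 and 7.59 FPKM in GEF-H1-/- DCs. Among 17 CXC and other ligands, 9 passed the filter. Of these, 5 were over 1 in WT (3.66% of all genes) and 2 in GEF-H1-/- DCs (0.807% of all genes). The neutrophil attractants *Cxcl2* (log2 ratios 3.78 and 1.50) and *Cxcl3* (4.87 and 1.76) were over 1 in both genotypes, and *Cxcl16* (1.16 and 0.84), *Ppbp* (1.30 and 0.25) and *Cxcl10* (1.51 and 4.19 FPKM in WT, a ratio of 2.78) in WT. *Ppbp* was like *Ccl9* in being higher in GEF-H1-/- control cells, at 47.1 against 18.0 FPKM. *Pf4*, at 24.5 and 30.2 FPKM in WT and 70.9 and 75.3 in GEF-H1-/- DCs, and *Cx3cl1*, at 16.8 to 27.9 FPKM, had log2 ratios of 0.39 or less.

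Of 14 CC receptors, 8 passed the filter. *Ccr7*, which guides mature dendritic cells to lymph nodes, was at 258 and 602 FPKM in WT and 234 and 405 in GEF-H1-/- DCs, log2 ratios of 1.22 and 0.79 with intervals apart in both genotypes. *Ccr2*, the receptor of *Ccl2* and *Ccl7*, went the other way, at 136 and 37.8 FPKM in WT (-1.82, intervals apart) and 135 and 94.5 in GEF-H1-/- DCs (-0.51, overlapping). *Ccr1*, a receptor of *Ccl6* and *Ccl9*, was at 71.4 and 126 FPKM in WT (0.81, intervals apart). In GEF-H1-/- DCs it was at 94.8 and 114 (0.26, overlapping). *Ccr4*, the receptor of *Ccl17* and *Ccl22*, was at 1.12 FPKM or less in all 4 groups and is named here after its values were seen.

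Genes that accompany the chemokines in their known programmes were read in the same way. Of 13 IL-4-type genes, 12 passed the filter. The other was *Chi3l3*, named here only because it had no OK status, so its expression cannot be read. Of the 12, 1 was over 1 in WT (3.66% of all genes). This was *Pdcd1lg2*, which encodes PD-L2 (59.1 and 133 FPKM, 1.16), against 0.49 in GEF-H1-/- DCs. *Arg1* (309.7 and 474 FPKM, 0.61), *Irf4* (99.6 and 170.0 FPKM, 0.77) and *Cish* (0.71) also had intervals apart towards higher FPKM in WT, and *Cd209a* (-0.64, at 1.81 and 0.81 FPKM and so below the level for naming) and *Socs1* (-0.20, 179 and 156 FPKM, the second outside its own interval) towards lower. The others at 10 FPKM or more overlapped in WT, namely *Mgl2* (0.54), *Clec10a* (0.43), *Il4i1* (-0.12), *Mrc1* (-0.15) and *Alox15* (-0.43). The largest difference between genotypes on that list was that of *Retnla*, at 510.0 and 537 FPKM in WT and 2397 and 2378 in GEF-H1-/- DCs, whereas *Ccl17*, *Ccl22* and *Ccl24* overlapped. In control cells 4 of the 12, *Retnla* among them, had intervals apart towards higher FPKM in GEF-H1-/- DCs (2.86% of all genes), and none towards lower. In treated cells 4 were apart towards higher and 2 towards lower FPKM (6.73% of all genes were lower). The 10 NF-kappaB feedback genes were all higher with ansamitocin-P3 in WT DCs (median log2 ratio 0.58), as were 50.1% of all genes. Of the 10, 2 were over 1 (3.66% of all genes), *Rel* (1.13) and *Nfkb1* (1.03). *Nfkb2* (0.64), *Tnip1* (0.60), *Relb* (0.55), *Nfkbie* (0.53), *Bcl3* (0.50), *Tnfaip3* (0.37) and *Nfkbia* (0.35) were under the threshold. So was *Nfkbiz* (0.88), named after its values were seen, at 1.07 and 2.81 FPKM with intervals apart. At these low values the added 1 FPKM mattered, and without it the *Nfkbiz* ratio was 2.63, past the threshold. In GEF-H1-/- DCs 9 of the 10 were higher (47.6% of all genes), with a median of 0.26, and none was over 1, *Rel* reaching 0.77 with intervals apart.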

How the data were processed

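The authors sequenced polyadenylated RNA of BMDCs as paired ends from stranded libraries and computed FPKM with Cuffdiff (version 1.05 in the submitters' processing notes, build mm10, that is GRCm38). The deposited table holds 1 FPKM value per gene and group, with its 95% interval and a status. Because no library values were used, the planned limma test was replaced by log2 ratios of (FPKM + 1), read against a threshold of 1 and against overlap of the intervals, over 11397 of 23356 genes with at least 1 FPKM in a group and an OK status (107 genes had another status). Members and gene lists were chosen with earlier results of these data known. Named were all members, listed genes over the threshold in a drug comparison or at 10 FPKM or more, and the nearest profiles, with genes outside this rule marked in the text. Marker genes were named to describe their lists. Older symbols were matched through RefSeq for 7 listed genes. Coding sequences came from GENCODE vM21 and promoters from RefSeq. Python 3.11.15, pandas 2.3.3 and biopython 1.88 were used, after a check on simulated data. A receptor and a coding stretch among the listed items are not reported here.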

Additional observations from a re-analysis of the deposited data

How the results depend on the processing

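The counts of members past the threshold were recomputed with pseudocounts of 0.1 and 5 FPKM, without the FPKM filter and with one of 5 FPKM, after rescaling each group by the median ratio over genes, with Cuffdiff intervals required to be apart, with a log2 threshold of 0.5 and, chosen after seeing the data, with no pseudocount. They stayed at 6 (WT) and 4 (GEF-H1-/-) for the drug, all higher, under all of these. The share of all genes that were higher past the threshold did vary. It ran from 1.79% (no FPKM filter) to 12.4% (threshold of 0.5) in WT, and from 0.396% to 3.85% under the same settings in GEF-H1-/- DCs. At a threshold of 0.5, the genotype counts became 5 in control cells (all higher, against 4.19% of all genes) and 3 in treated cells (all lower, 9.75%), and the count of members whose drug effect differed became 6 (all lower, 6.73%). With a pseudocount of 5 that last count was 2, without *Ccl7* (both lower, against 0.798% of all genes). The median share of the WT change was 0.579 with a pseudocount of 0.1, 0.598 with 5, 0.589 after rescaling and 0.578 with no pseudocount. Rescaling gave totals of 10598, 14947, 9992 and 12003 FPKM for control and treated WT and control and treated GEF-H1-/- DCs. No paired analysis was possible because the table holds 1 value per group, and leaving out each replicate was not run for the same reason. Cuffdiff intervals are the only error, and the depth of the libraries is unknown.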

Other observations

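The genes next to the members were read for the same groups. Of 28 other genes within 100 kb of a member, 19 passed the filter. With ansamitocin-P3, 1 was over 1 on the log2 scale in WT DCs (3.66% of all genes), E230016K23Rik (1.10, overlapping intervals). None of the 19 was over 1 in GEF-H1-/- DCs (0.807% of all genes). Their median log2 ratios were 0.10 (WT) and 0.07 (GEF-H1-/-). *Wfdc17*, a gene beside *Ccl4* on chromosome 11 named after its values were seen, was at 22.3 and 27.2 FPKM in control and treated WT DCs and at 114 and 122 in GEF-H1-/- DCs. *1100001G20Rik*, also beside *Ccl3* and *Ccl4* and chosen in the same way, went the other way, at 257 and 286 FPKM in WT and 141.4 and 141.5 in GEF-H1-/- DCs. Its FPKM exceeded the upper bound of its own interval in all 4 groups, as did that of *Wfdc17* in both GEF-H1-/- groups. Their intervals are thus an uncertain measure of error. The members on that stretch likewise differed in direction between the control genotypes, with *Ccl6* and *Ccl9* higher and *Ccl3*, *Ccl4* and *Ccl5* lower (overlapping intervals) in GEF-H1-/- DCs.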
